A study of Apis mellifera ligustica with 11 samples.

Results

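The genes described here are the immune effectors, recognition proteins and serine proteases of the honeybee, as expressed in brain tissue around exposure to fluvalinate. They were chosen by a rule on names that holds no measured value, but with earlier results of these data known. It took rows whose description contains a word such as defensin, lysozyme, peptidoglycan, Toll, phenoloxidase, serpin, trypsin or serine protease. It also took 4 symbols given by hand, Def1, LOC409204, LOC113218576 and LOC725114, and left out venom proteins. The rule found 66 of the 9974 rows of the expression table. These are 5 antimicrobial peptides, 3 lysozymes, 6 peptidoglycan-binding proteins, 7 Toll-type receptors, 1 NF-kappa-B factor, 3 phenoloxidase genes, 9 protease inhibitors, 17 trypsins or chymotrypsins and 15 other serine proteases.

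The tissue was brain of Apis mellifera ligustica, the Italian honeybee, with the royal jelly glands and pigments removed, and RNA was sequenced per library. Of the 11 libraries 3 were taken 1 day ahead of exposure, 2 at day 10 after it (replicates 2 and 3), 3 at day 20 and 3 at day 30. The bees of the exposed set received fluvalinate, a pyrethroid used in hives against mites, at the usual dose with treatment repeated every 7 days. The protocol also names a control set, but no control library of day 10, 20 or 30 entered the comparisons, so fluvalinate and elapsed time cannot be told apart. The labels give neither the age of the bees nor whether replicates came from different colonies or pooled brains, so the spread behind a p-value may be technical.

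Insects answer microbes without antibodies. Peptidoglycan recognition proteins bind bacterial cell walls, and cascades of extracellular serine proteases, held in check by serpins and other inhibitors, carry the signal to the Toll receptor or activate phenoloxidase, which makes melanin. NF-kappa-B factors then switch on antimicrobial peptides, for which the fat body is the main source in insects. In honeybees hymenoptaecin, abaecin and apidaecin are known as peptides induced by bacterial infection, whereas defensin 1 is also a constituent of royal jelly, where it is called royalisin.

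Values are FPKM, fragments counted per length of transcript and per depth of the library, as deposited by the authors. Tests used limma on log2(FPKM + 1) over the 7830 genes that averaged 1 FPKM or more, with a call at a Benjamini-Hochberg adjusted p under 0.05. Of the 66 members 36 passed this filter, with means between 1.51 and 2349 FPKM. LOC409204 passed through 3 high libraries and Apid1 through 1, so counts over the tested members are not counts over all of them. Depth is unknown, since FPKM hold no read counts. Mrjp1 to Mrjp7, the royal jelly proteins made by the hypopharyngeal gland, summed to 4662 to 12863 FPKM before exposure, to 94231 and 126260 at day 10, to 44155 to 85199 at day 20 and to 4234 to 36823 at day 30. All 7 of these gland markers were above 0 in every library. The fat body markers, 8 genes with at most 1 at 0 in a library, summed to 89.4 to 124 FPKM before exposure, to 373 and 765 at day 10, to 82.8 to 121 at day 20 and to 52.9 to 637 at day 30, and their high sums were carried by A4, an apolipophorin-III-like protein, at 667 and 270 FPKM at day 10. The neuron markers, 5 genes with none at 0 in any library, summed to 413 to 452 FPKM before exposure, to 212 and 274 at day 10, to 344 to 386 at day 20 and to 362 to 440 at day 30. The haemocyte markers, 6 genes with at most 1 at 0 in a library, stayed between 71.2 and 112 FPKM in all groups. The part of fat body, neurons and haemocytes in the results below was not tested. In such bulk samples fewer cells of a type and less RNA per cell cannot be told apart. The 66 members together took up 0.773%, 0.825% and 0.981% of all FPKM in the libraries before exposure, 3.23% and 2.04% at day 10, 1.45%, 1.91% and 2.97% at day 20 and then 0.662%, 3.04% and 0.787% at day 30. Def1 and the chymotrypsin inhibitor-like gene LOC113218518 made up between 33.1% and 85.7% of those sums.

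At day 10, 9 of the 36 tested members (25%) differed from the libraries before exposure, 6 higher and 3 lower. Over all tested genes the share called was 19.2%, with 2.22% higher and 16.9% lower. The 6 higher genes were Def1, the chymotrypsin inhibitors LOC113218518 and LOC725202, the phenoloxidase-activating factor LOC409204, a lysozyme-like gene and a snake-type serine protease. The 3 lower genes were a pair of Toll-like receptors and trypsin-1. Without a filter on low values 8 of 65 members were called at day 10, 6 higher and 2 lower, against 14.6% of 9781 genes. The share of members called thus depended on the filter. No member was called at day 20 or at day 30 against before exposure, where the share called over all genes was 0% in both. At an unadjusted p of 0.05 limma gave 11 members at day 10, 3 at day 20 and 1 at day 30, against 33.6%, 9.89% and 7.18% of all genes.

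Against before exposure the median log2 change over all genes was -0.18 at day 10, -0.11 at day 20 and 0.03 at day 30, and from day 10 to day 30 it was 0.22. Unless a log2 difference is called as deposited, this median has been subtracted from it. Such a difference stands with limma's standard error (SE), and p-values test the values as deposited. Log2 differences under another scaling or normalization are given as fitted, with nothing subtracted. With median-of-ratios scaling, under which the median at day 10 was 0.02, 7 members were called at day 10, 6 higher and 1 lower. The share over all genes was then 9.96%. Quantile normalization gave 4 higher and 1 lower, against 11% of all genes. Without day 10 replicate 2, which leaves 1 library at that time, none of the 9 was called (adjusted p from 0.130 to 0.301). Nearly all calls over all genes were lost in that fit too, so the loss was not particular to the members. With the mean log2 level of Mrjp1 to Mrjp7 as a covariate none of the 9 was called either (adjusted p from 0.407 to 0.974). The share over all genes with the covariate was 0%. The Mrjp sums did not overlap between these groups, at 4662 to 12863 FPKM before exposure and 94231 and 126260 at day 10. This fit therefore cannot tell the Mrjp level and sampling time apart. The count at day 10 was 5 of 36 without before-exposure replicate 1, where 12.3% of all genes were called. The direction of all 9 was kept in every setting tried. For omissions of a library this was fixed in advance, since the values of these genes did not overlap between the groups compared. With the covariate it included LOC725154 at 0.05 ± 0.37, as deposited.

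**Figure D1:**
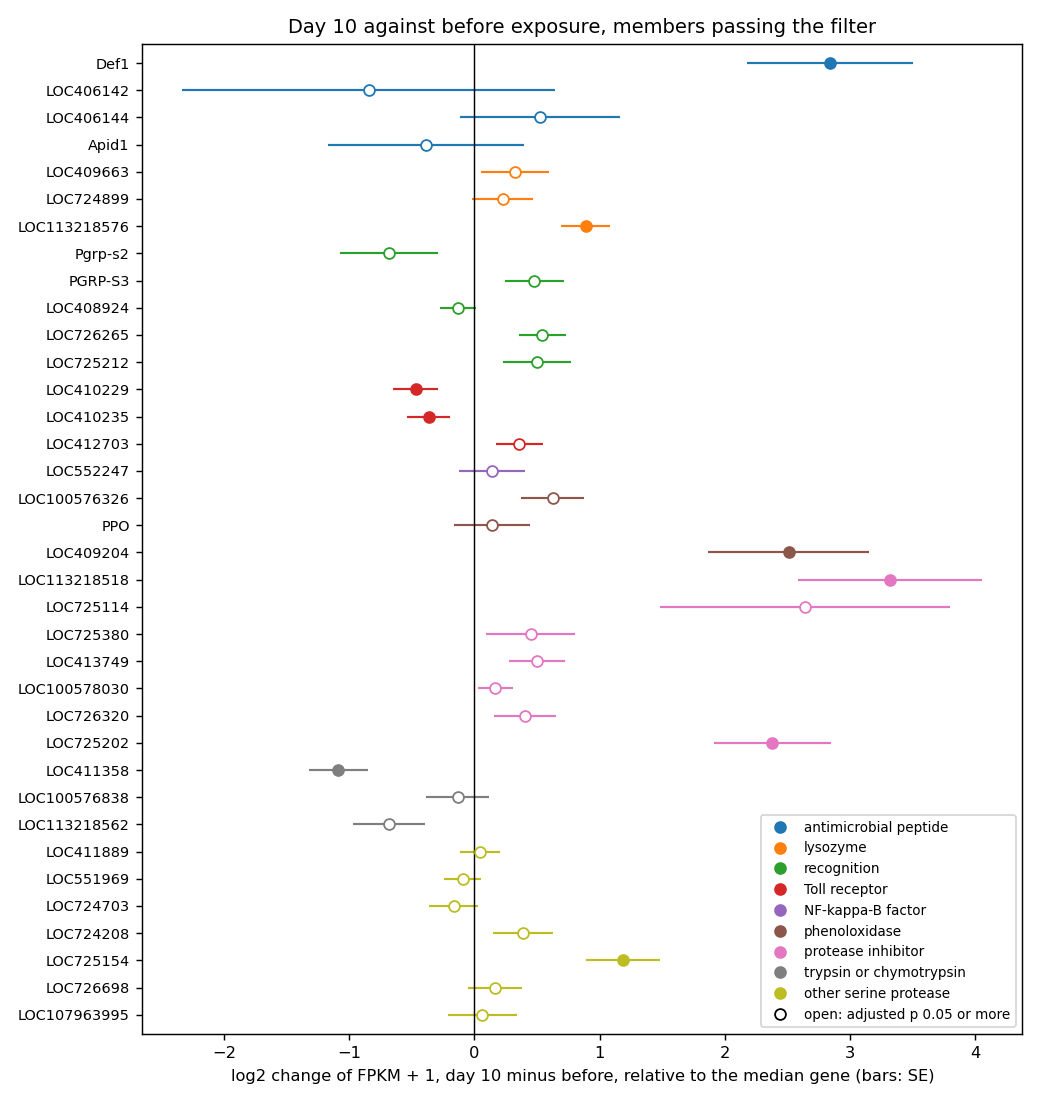
Log2 change of the 36 tested members at day 10 against before exposure, relative to the median gene, with SE bars, colours for the role and filled points for an adjusted p under 0.05. The 9 filled points comprise 6 to the right of 0 and 3 to the left, and hymenoptaecin (LOC406142) carries the widest bar.

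Of the 4 antimicrobial peptides tested, Def1 rose at day 10 and the others passed no test against before exposure. Def1 was abundant throughout, with 789, 798 and 483 FPKM before exposure, 5584 and 3254 at day 10, 2295, 2949 and 4067 at day 20 and then 503, 3817 and 726 at day 30. Every library of days 10 and 20 lay above those before exposure, while at day 30 only replicate 2 did. Def1 rose at day 10 by 2.84 ± 0.66 (SE) on the log2 scale (limma, adjusted p = 0.0174), or 6.40-fold in mean FPKM. At day 20 the difference was 2.28 ± 0.59 with an adjusted p of 0.313. Without day 30 replicate 2 Def1 was called at day 20 as well, with an adjusted p of 0.0294. The day 10 call was lost without before-exposure replicate 3 (adjusted p = 0.0515) and with quantile normalization (2.06, adjusted p = 0.0571). With the level of the Mrjp genes as a covariate the log2 difference of Def1 at day 10, as deposited, was 0.20 ± 0.66. Without the covariate it was 2.66 ± 0.66. As said above, the fit with the covariate cannot tell the Mrjp level and sampling time apart.

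Hymenoptaecin, abaecin and apidaecin 1 shared a high value in 1 library taken before exposure. Hymenoptaecin (LOC406142) stood at 4.20, 14.3 and 535 FPKM before exposure, 6.64 and 37.7 at day 10, 17.3, 32.2 and 7.11 at day 20 and then 21.9, 62.4 and 114 at day 30. Abaecin (LOC406144) stood at 22.2, 28.6 and 172 FPKM before exposure, 62.4 and 60.7 at day 10, 111, 94.9 and 59.3 at day 20 and then 49.2, 70.8 and 36.7 at day 30. Replicate 3 before exposure was the highest of all 11 libraries for both, and replicates 1 and 2 of that time were below every later library for abaecin. Apidaecin 1 (Apid1) was scarce, with 0, 0.58 and 9.43 FPKM before exposure and at most 2.46 FPKM in any later library. Apidaecin genes hold repeated coding units, so how the authors' counting treated them is uncertain.

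The differences of these peptides from before exposure turned on before-exposure replicate 3, as the log2 differences as deposited show. For hymenoptaecin the difference at day 10 was -1.02 ± 1.49 (adjusted p = 0.681) with that library and 0.95 ± 0.88 (adjusted p = 0.518) without it. At day 30 it was 0.66 ± 1.33 (adjusted p = 0.912) with it and 2.63 ± 0.81 (adjusted p = 0.600) without it. Abaecin, with 0.35 ± 0.64 (limma, adjusted p = 0.755) at day 10, was called higher there once that library was left out, by 1.26 ± 0.31 (adjusted p = 0.0277). Its difference at day 20 without that library was 1.72 ± 0.28 with an adjusted p of 0.153. Apidaecin 1 had an adjusted p of 0.665 at day 10 and fell under the filter without that library. Def1 did not share the high value: before-exposure replicate 3 was its lowest library of the 11.

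Before-exposure replicate 3 was also high for other members. Pgrp-s2, a short peptidoglycan recognition protein, stood at 38.5, 63.9 and 142 FPKM before exposure, 36.2 and 40.9 at day 10, 88.1, 63.8 and 54.8 at day 20 and then 70.9, 57.2 and 65.2 at day 30. Among the 5794 tested genes with at least 5 FPKM in before-exposure replicate 3, 12 exceeded the next highest library by more than 1.5 times. Hymenoptaecin (4.70 times), apidaecin 1 (3.83), Pgrp-s2 (1.61) and abaecin (1.55) were 4 of these 12. Apd-1 (apidermin 1, a cuticle protein, 6.53 times) was the highest of them. Of the 36 tested members 10 had their highest value in this library (27.8%), against 12.8% of all tested genes. The other 6 of these 10 were PGRP-S3, LOC100576326, the serpins LOC413749 and LOC100578030, and the serine proteases LOC724703 and LOC724208. Before-exposure replicate 3 was looked up after its values had been seen, and apidaecin 1 passed the filter only through it. The counts of 4 and 10 therefore describe this library and were not tested. In that library the fat body markers summed to 124 FPKM (89.4 and 112 in replicates 1 and 2), the haemocyte markers to 107 FPKM (94.2 and 90.2) and the muscle markers, 13 genes with at most 2 at 0 in a library, to 499 FPKM (348 and 374), each the highest of the 3 libraries before exposure. The part of these tissues was not tested.

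**Figure D2:**
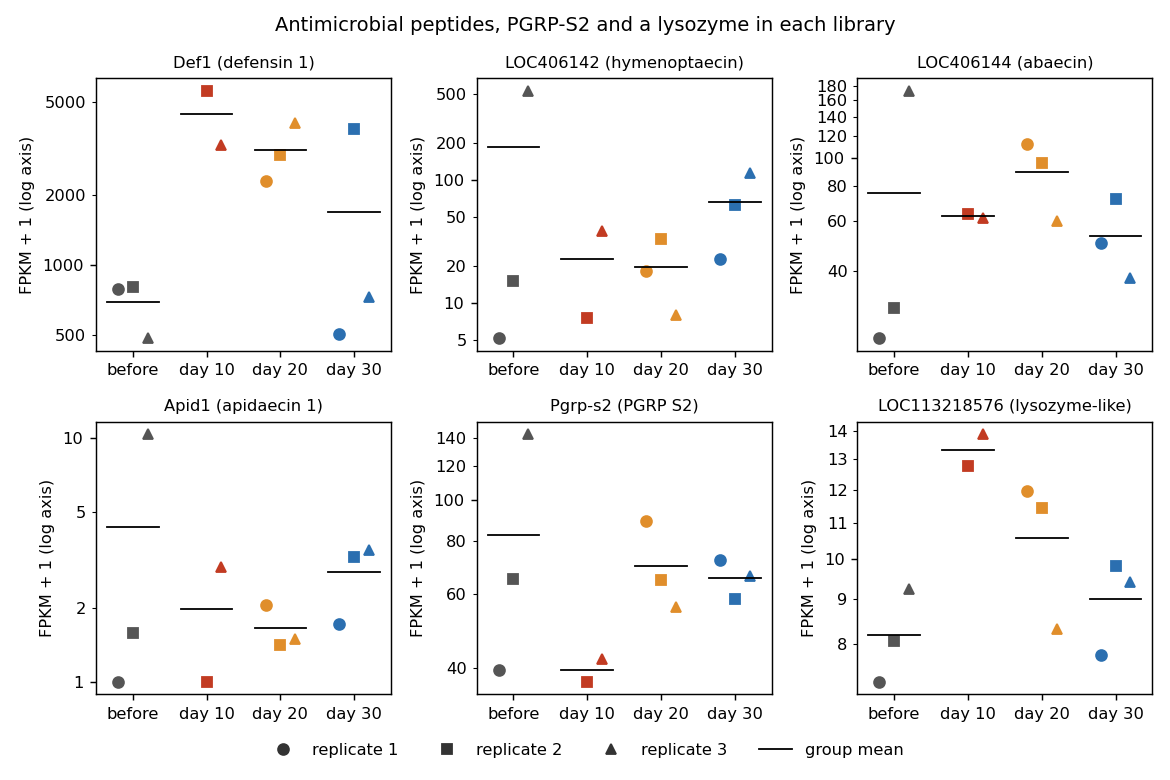
FPKM + 1 on log axes of 4 antimicrobial peptides, Pgrp-s2 and the lysozyme-like gene LOC113218576 in each of the 11 libraries, with replicates as marker shapes and lines at the group means. Hymenoptaecin, abaecin, apidaecin 1 and Pgrp-s2 are highest in before-exposure replicate 3, at 535, 172, 9.43 and 142 FPKM, where Def1 is at 483 FPKM.

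Lysozymes, which cleave bacterial cell walls, showed 1 change among 3 genes. LOC113218576 (lysozyme-like) stood at 6.24, 7.05 and 8.25 FPKM before exposure, 11.8 and 12.9 at day 10, 10.96, 10.5 and 7.32 at day 20 and then 6.77, 8.81 and 8.42 at day 30. Both day 10 libraries lay above those before exposure, and the rise was 0.89 ± 0.20 (limma, adjusted p = 0.0259). The call was lost without before-exposure replicate 1, before-exposure replicate 2 or either day 10 library. LOC409663 ranged from 51.1 to 102 FPKM over the 11 libraries and LOC724899 from 11.7 to 28.5 FPKM, with adjusted p-values of 0.755 and 0.918 at day 10. LOC724899 and LOC113218576 are next to each other in the gene order of RefSeq's assembly Amel_HAv3.1, so they are neighbours with different patterns.

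Recognition genes gave no call at day 10 among the 5 that were tested. The membrane-type receptor LOC408924 (PGRP-LC), known in Drosophila as the receptor that starts the Imd pathway, was narrow in its range. It stood at 15.4, 15.4 and 15.6 FPKM before exposure and at 12.2 and 12.4 at day 10, without overlap, and the log2 difference relative to the median gene was -0.13 ± 0.15 (adjusted p = 0.158). PGRP-S3 was at 14.3 ± 5.07 FPKM (SD, n = 3) before exposure and at 17.1 ± 0.33 FPKM (SD, n = 2) at day 10, with an adjusted p of 0.405 from limma. Pgrp-s2 had an adjusted p of 0.143 at day 10. LOC725158 (peptidoglycan-recognition protein 1), its neighbour in the RefSeq order, stayed at or below 0.38 FPKM in every library. The rule also brought in 2 LysM-domain proteins, neither called. LOC726265 was at 7.20 ± 0.19 FPKM (SD, n = 3) before exposure and 9.62 ± 1.45 FPKM (SD, n = 2) at day 10, without overlap (limma, adjusted p = 0.201), and LOC725212 stayed at or below 3.73 FPKM.

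Toll-type receptors were lower at day 10 in 2 of the 3 genes tested. LOC410229 (toll-like receptor 6) stood at 19.7, 13.6 and 16.7 FPKM before exposure, 9.18 and 11.3 at day 10, 15.0, 12.0 and 12.2 at day 20 and then 16.2, 14.5 and 17.9 at day 30. It fell at day 10 by 0.47 ± 0.18 relative to the median gene (limma, adjusted p = 0.0264), and it was higher again at day 30 than at day 10, by 0.40 ± 0.18 (adjusted p = 0.0465). LOC410235 (Tollo, a receptor known in Drosophila from development and the nervous system) stood at 18.2, 13.0 and 17.5 FPKM before exposure, 11.2 and 10.3 at day 10, 12.6, 9.77 and 11.5 at day 20 and then 13.1, 14.1 and 15.2 at day 30. It fell at day 10 by 0.36 ± 0.17 (limma, adjusted p = 0.0435). At day 20 its libraries also lay below those before exposure, by a log2 difference of -0.37 ± 0.15 with an adjusted p of 0.360.

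Both receptors kept their sign under the other scalings but not their calls. With median-of-ratios scaling the log2 differences were -0.44 for LOC410229 (adjusted p = 0.129) and -0.34 for LOC410235 (adjusted p = 0.251). With quantile normalization they were -0.45 (adjusted p = 0.121) and -0.34 (adjusted p = 0.249). Leaving out single libraries ended the call of LOC410229 in 3 cases (before-exposure replicates 1 and 3, day 10 replicate 2) and that of LOC410235 in 8 of 11, all but before-exposure replicate 2, day 20 replicate 2 and day 30 replicate 1. The sum of the neuron markers was lower at day 10 too, as given above. Among them synaptobrevin-1 (LOC725310) was not lower, at 39.6 and 33.8 FPKM against 29.7 to 35.9 before exposure. The glia markers, 6 genes with none at 0, summed to 1648 and 2105 FPKM against 2191 to 2991 before exposure. Most of that sum was GlnS (glutamine synthetase), at 1560 and 1997 FPKM against 2057 to 2835. Of the other glia markers Eaat-2 and LOC409919 were lower without overlap, while LOC408769, LOC412382 and LOC551759 overlapped between the groups. LOC412703, described as protein toll, stood at 4.14, 6.57 and 5.67 FPKM before exposure and at 5.81 and 6.68 at day 10, where the groups overlapped (adjusted p = 0.550). LOC724187, LOC551378, LOC100578966 and LOC410231, the other 4 receptors, had means of 0.843, 0.321, 0.269 and 0.115 FPKM and were not tested.

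LOC552247, the NF-kappa-B p100 subunit gene, showed no call. It stood at 6.12, 11.2 and 8.56 FPKM before exposure, 7.66 and 8.69 at day 10, 7.02, 7.05 and 7.62 at day 20 and then 12.5, 6.31 and 7.5 at day 30. The adjusted p was 0.942 at day 10, and its highest library was day 30 replicate 1.

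Other immune genes were read from a mixed list of 41, of which 34 were tested. It holds parts of the Toll, Imd, JAK-STAT and RNA interference pathways beside Dscam genes, scavenger receptors, transferrins, lectins and draper, so its counts are not shares of any 1 pathway. Dorsal (Dl), the NF-kappa-B factor of the Toll pathway, is neither in it nor a member. At day 10, 1 of these was higher and 5 were lower, or 17.6% called against the 19.2% of all genes, and the list's median change was -0.25 against -0.18 for all genes. LOC100577690 (fas-associated death domain protein, an adaptor of the Imd pathway in Drosophila) rose by 1.01 ± 0.27 on the log2 scale, with 1.29 ± 0.18 FPKM (SD, n = 3) before exposure and 3.12 ± 0.79 (SD, n = 2) at day 10. Relative to the median gene, LOC411012 (cactus, the inhibitor that holds NF-kappa-B factors in the cytoplasm) fell by 0.28 ± 0.15. LOC552062 (argonaute-2) fell by 0.30 ± 0.15 on that scale. As deposited their log2 differences were -0.46 and -0.48, and limma tested these values, which hold the shift of the median gene. Dscam, an adhesion molecule of neurons and haemocytes, was at 20.8 ± 4.86 FPKM (SD, n = 3) before exposure and 8.70 ± 2.52 (SD, n = 2) at day 10, a fall by 0.99 ± 0.21. The Dscam2-like genes LOC408688 and LOC412855 each fell by 0.69, with SE of 0.25 and 0.27. The adjusted p-values of these 6 lay between 0.00631 and 0.0498. Other scalings and omissions of libraries were not looked at for this list. No gene of the list was called at day 20 or day 30 against before exposure, where the share over all genes was 0%. There 4 and 1 of the 34 had an unadjusted p under 0.05 with limma, against 9.89% and 7.18% of all genes. From day 10 to day 30, 1 gene of the list, Dscam, was called higher (limma, adjusted p = 0.0313). This was 2.94% of the list, against 10.8% of all genes. An unadjusted p under 0.05 with limma was reached by 14 of the 34, against 29.6% of all genes.

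Of the 3 phenoloxidase genes 1 was called at day 10, with the largest ratio of mean FPKM among the 9 called members. LOC409204 (phenoloxidase-activating factor 2) stood at 0.59, 0.60 and 1.02 FPKM before exposure, 8.17 and 7.26 at day 10, 9.80, 0.48 and 0.49 at day 20 and then 0.57, 0.87 and 0.90 at day 30. Day 10 replicates 2 and 3 and day 20 replicate 1 were thus at 7.26 FPKM or more and the other 8 libraries at 1.02 FPKM or less, with nothing between. It rose at day 10 by 2.51 ± 0.64 (limma, adjusted p = 0.0259), or 10.5-fold in mean FPKM, and fell from day 10 to day 30 by 2.51 ± 0.64 (adjusted p = 0.0436). The call of this fall was lost in all 6 other settings run for it, with -2.46 (adjusted p = 0.0881) under median-of-ratios scaling and -2.48 (adjusted p = 0.0822) under quantile normalization. With the Mrjp level as a covariate its log2 difference at day 10, as deposited, was 2.72 ± 1.09 (adjusted p = 0.451), against 2.33 ± 0.64 without it. The day 10 call was lost without before-exposure replicate 1, before-exposure replicate 2 or either day 10 library. Over all 11 omissions the log2 differences of LOC409204 at day 10, as deposited, lay between 2.26 and 2.45, against 2.33 with all libraries.

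LOC100576326 bears the same description and was far more abundant. It stood at 51.6, 70.0 and 122 FPKM before exposure, 108 and 101 at day 10, 69.2, 67.3 and 71.0 at day 20 and then 54.0, 56.7 and 53.4 at day 30. The libraries of day 10 lay above those of day 20 and these above those of day 30, while the libraries before exposure spanned all later ones. It fell from day 10 to day 30 by 1.14 ± 0.25 (limma, adjusted p = 0.0423), and its adjusted p at day 10 against before exposure was 0.237. Without before-exposure replicate 3, its highest library, it was called higher at day 10, by 0.79 as deposited (adjusted p = 0.0188). The call of the fall was lost with median-of-ratios scaling (-1.16, adjusted p = 0.0576), without a filter (adjusted p = 0.0599), with the replicate block (adjusted p = 0.0733) and with the Mrjp covariate (adjusted p = 0.739). PPO, the phenoloxidase that makes melanin, ranged from 6.72 to 14.3 FPKM and was called in no comparison.

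**Figure D3:**
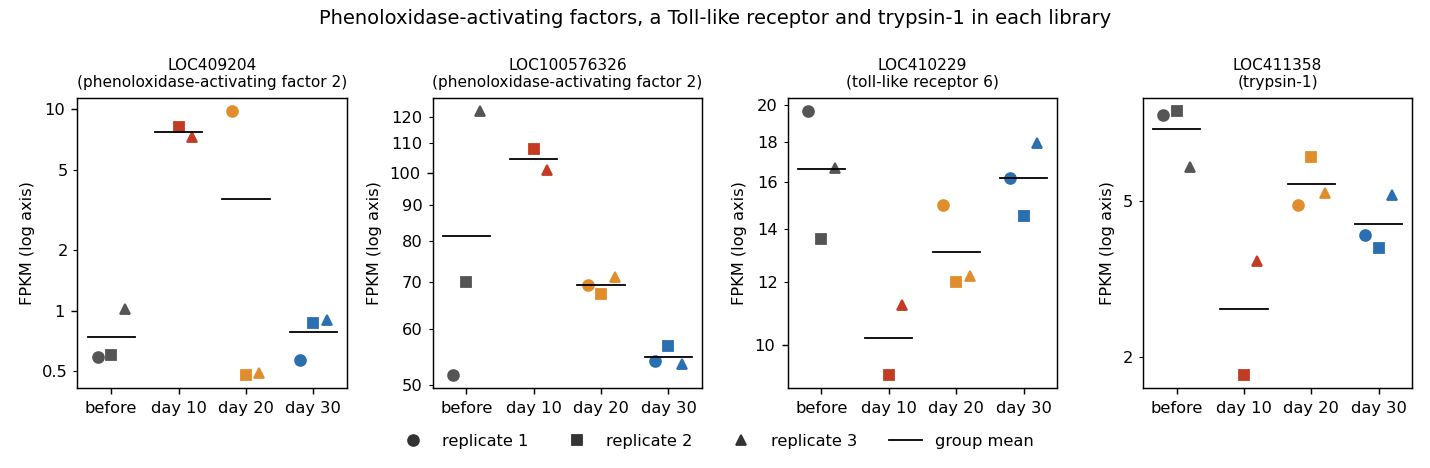
FPKM on log axes of the phenoloxidase-activating factors LOC409204 and LOC100576326, the Toll-like receptor LOC410229 and trypsin-1 (LOC411358) in each library, with replicates as marker shapes and lines at the group means. LOC409204 is at 7.26 FPKM or more in 3 libraries and at 1.02 FPKM or less in the other 8, and LOC411358 is lowest in the 2 libraries of day 10, at 1.80 and 3.51 FPKM.

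The protease inhibitors held the most abundant gene of the set. LOC113218518 (chymotrypsin inhibitor-like) stood at 518, 662 and 467 FPKM before exposure, 6352 and 3636 at day 10, 1510, 2717 and 4631 at day 20 and then 522, 4217 and 607 at day 30. Its libraries at days 10 and 20 lay above those before exposure, and at day 30 replicate 2 alone was high, as for Def1. It rose at day 10 by 3.32 ± 0.74 (limma, adjusted p = 0.0138), or 9.09-fold in mean FPKM. At day 20 the difference was 2.41 ± 0.66 (adjusted p = 0.313), and it was called there without day 30 replicate 2 (adjusted p = 0.0294). With the Mrjp level as a covariate its log2 difference at day 10, as deposited, was 0.37 ± 0.72 (adjusted p = 0.875), against 3.14 ± 0.74 without it.

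LOC725202, another chymotrypsin inhibitor, was low and rose as well. It stood at 1.61, 0.92 and 0.79 FPKM before exposure, 8.24 and 8.90 at day 10, 4.52, 5.20 and 0.66 at day 20 and then 1.55, 3.57 and 2.73 at day 30. The rise at day 10 was 2.38 ± 0.46 (limma, adjusted p = 0.00951), or 7.74-fold in mean FPKM. The call was kept in 10 of the 11 omissions of a single library, all but that of day 10 replicate 2. With the Mrjp level as a covariate its log2 difference, as deposited, was 1.91 ± 0.79 (adjusted p = 0.458), against 2.20 ± 0.46 without it.

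LOC725114, also a chymotrypsin inhibitor, was high in 1 library at each exposed time. It stood at 135, 124 and 174 FPKM before exposure, 2201 and 283 at day 10, 146, 245 and 1326 at day 20 and then 131, 1786 and 136 at day 30. Both libraries of day 10 lay above those before exposure, but the difference of 2.64 ± 1.16 was not called (adjusted p = 0.157). The 3 high libraries were day 10 replicate 2, day 20 replicate 3 and day 30 replicate 2, so no replicate number was high throughout.

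LOC725202, LOC725380 and LOC113218518 follow one another directly in the RefSeq gene order, with LOC725114 5 genes from LOC725202. Neighbours of like description may be alike in sequence, and whether reads were shared out between them correctly is uncertain. LOC725380 nevertheless had its own pattern, with 99.5, 173 and 223 FPKM before exposure, 245 and 147 at day 10, 139, 189 and 161 at day 20 and then 99.3, 170 and 79.4 at day 30. Its groups overlapped, with an adjusted p of 0.643 at day 10.

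Serpins are inhibitors that trap a serine protease by a covalent bond, and none of those tested was called. LOC413749 (serine protease inhibitor 88Ea) was at 91.5 ± 28.6 FPKM (SD, n = 3) before exposure and 111 ± 12.6 FPKM (SD, n = 2) at day 10. LOC100578030 (antitrypsin) varied little, with 60.7 to 86.1 FPKM over all libraries, 74.1 ± 12.7 FPKM (SD, n = 3) before exposure and 72.9 ± 1.82 FPKM (SD, n = 2) at day 10. LOC726320 (27A), whose Drosophila namesake restrains the melanisation cascade, ranged from 2.45 to 4.79 FPKM.

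**Figure D4:**
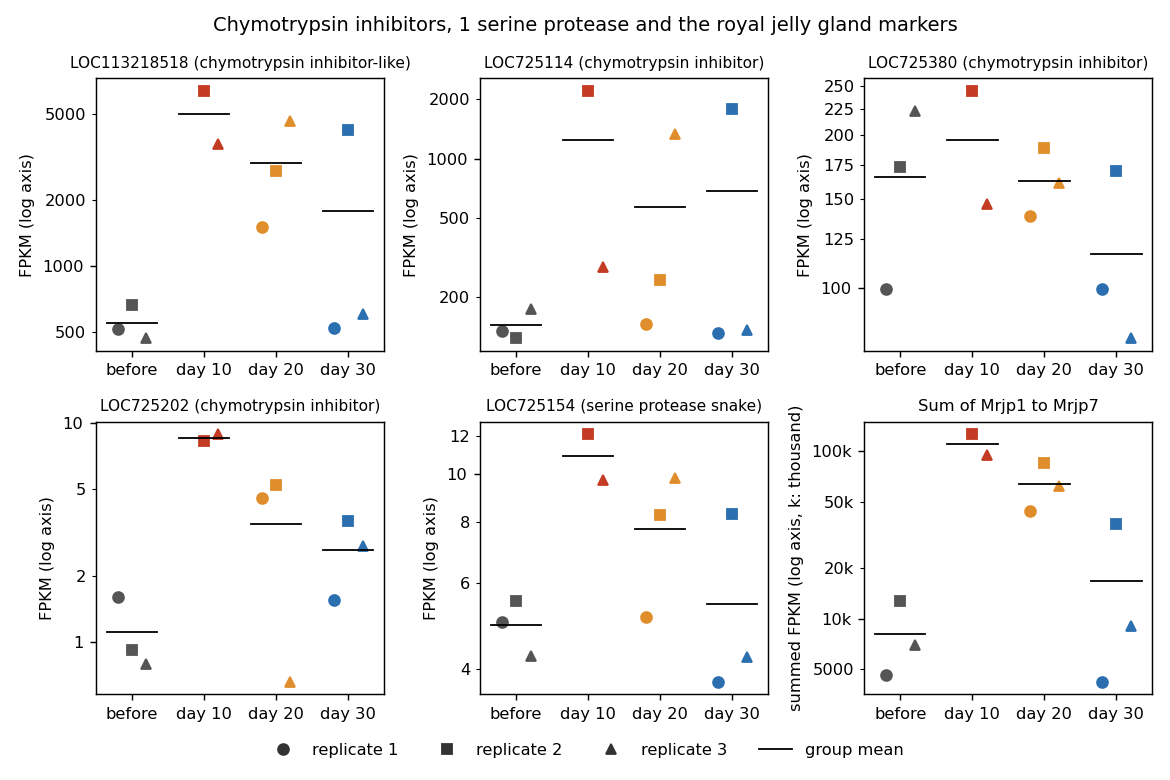
FPKM on log axes of 4 chymotrypsin inhibitors, the snake-type serine protease LOC725154 and the sum of Mrjp1 to Mrjp7 in each library, with replicates as marker shapes and lines at the group means. LOC113218518 and LOC725154 are high at day 30 in replicate 2 alone, at 4217 and 8.29 FPKM, where the Mrjp sum is 36823 FPKM.

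Trypsins and chymotrypsins, known best as digestive enzymes, were scarce: 14 of 17 did not reach a mean of 1 FPKM. Of the midgut markers, 6 genes, LOC100577577 (peritrophin-1) was listed at 0 in every library, and the list's sum of 4143 to 4961 FPKM before exposure and 3347 to 4697 at day 10 came from LOC409077 (aminopeptidase N) and LOC406114 (alpha-amylase). LOC409077 was at 3597, 3614 and 3599 FPKM before exposure and at 1637 and 2225 at day 10, lower like trypsin-1, while LOC406114 was at 1325, 1346 and 543 FPKM before exposure and at 3060 and 1121 at day 10. LOC406114 was highest in day 10 replicate 2, day 20 replicate 3 and day 30 replicate 2, as was Def1. Both LOC409077 and LOC406114 were listed by description, and whether they mark midgut in these samples was not tested. Nor was their part in the results on trypsins. LOC411358 (trypsin-1) stood at 8.27, 8.46 and 6.10 FPKM before exposure, 1.80 and 3.51 at day 10, 4.89, 6.45 and 5.22 at day 20 and then 4.10, 3.80 and 5.18 at day 30. It fell at day 10 by 1.09 ± 0.24 relative to the median gene (limma, adjusted p = 0.00676), which was the smallest adjusted p of the set. The call was kept under median-of-ratios scaling (adjusted p = 0.0232) and lost without day 10 replicate 2 (adjusted p = 0.131). All 3 libraries of day 30 were also below those before exposure, with a difference of -0.71 ± 0.21 and an adjusted p of 0.387. LOC113218562 (trypsin-7-like) stood at 2.21, 2.25 and 2.08 FPKM before exposure and at 0.59 and 0.93 at day 10, without overlap, and just missed the threshold (-0.68 ± 0.29, adjusted p = 0.0552). LOC100576838 (anionic trypsin-2) lay between 1.72 and 4.12 FPKM and was called in no comparison. Its day 10 libraries, at 1.81 and 1.72 FPKM, overlapped those before exposure but lay below every library of days 20 and 30. LOC724259 and LOC102656398, the next by level, had means of 0.547 and 0.499 FPKM.

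Of the other serine proteases LOC725154, 1 of 4 genes of the set described as snake, was called. Snake is a protease of the Drosophila cascade that activates Toll in the embryo. LOC725154 stood at 5.0, 5.51 and 4.25 FPKM before exposure, 12.1 and 9.76 at day 10, 5.11, 8.25 and 9.85 at day 20 and then 3.77, 8.29 and 4.24 at day 30. It rose at day 10 by 1.19 ± 0.30 (limma, adjusted p = 0.0341). The call was lost without any 1 of the 3 libraries before exposure or either day 10 library, and with the Mrjp level as a covariate the log2 difference, as deposited, was 0.05 ± 0.37 against 1.01 ± 0.30 without it. LOC724208 and LOC726698, the tested snake genes besides it, were at 9.65 ± 3.16 and 6.59 ± 1.82 FPKM (SD, n = 3) before exposure and at 11.02 ± 1.58 and 6.42 ± 0.73 FPKM (SD, n = 2) at day 10, within the spread of the libraries.

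The most abundant serine proteases passed no test. LOC411889 (putative serine protease K12H4.7) lay between 21.2 and 32.0 FPKM in all libraries and LOC551969 (HTRA2, a mitochondrial protease) between 11.1 and 17.6 FPKM, the latter lower at day 10 than before exposure without overlap (limma, adjusted p = 0.230). LOC724703 (modular serine protease, which in insects links pattern recognition to the Toll cascade) was at 12.2 ± 2.37 FPKM (SD, n = 3) before exposure and 9.36 ± 1.68 FPKM (SD, n = 2) at day 10, with overlapping groups and an adjusted p of 0.240 from limma.

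**Figure D5:**
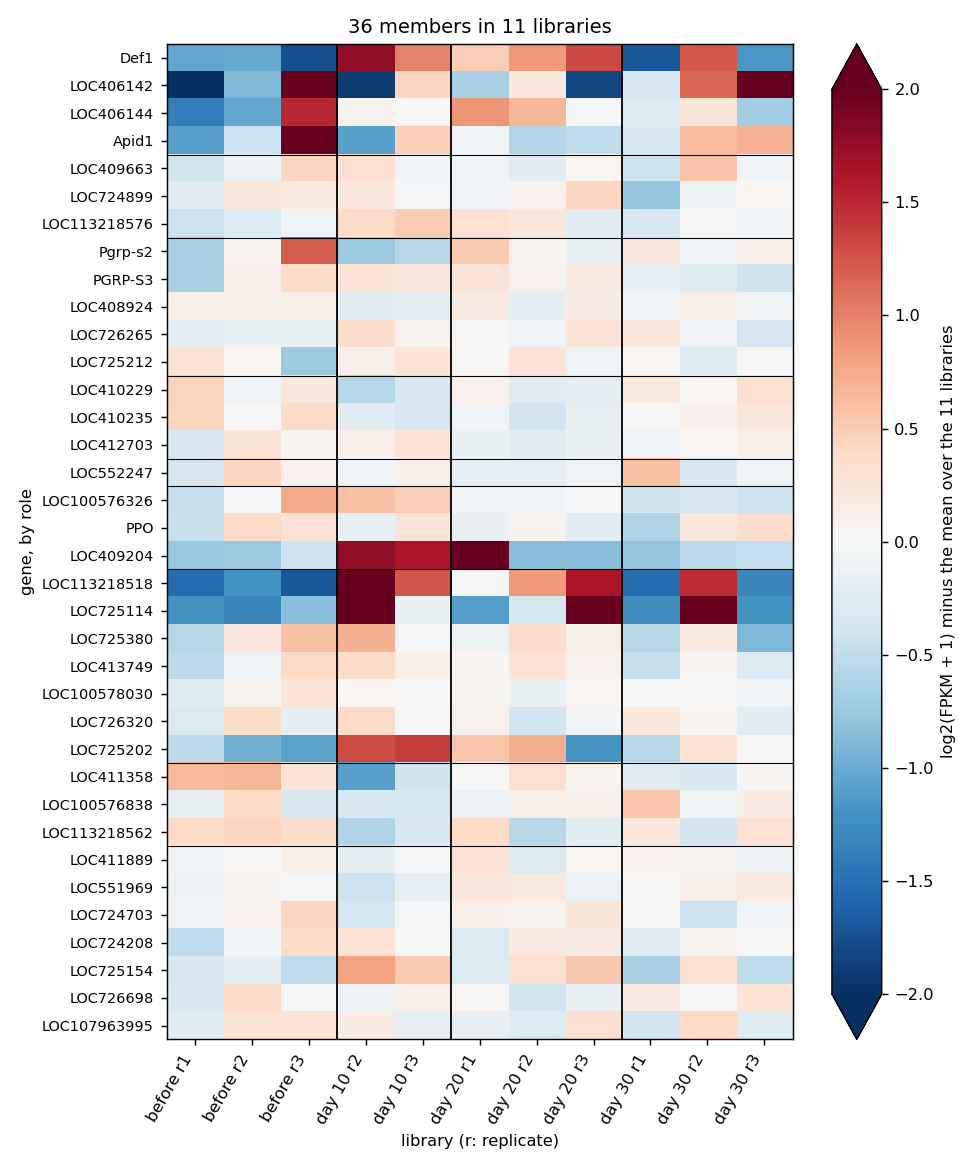
Log2(FPKM + 1) of the 36 tested members in the 11 libraries, each minus the gene's mean over the libraries, ordered by role and then by level, with the colour scale ending at 2 in both directions. Before-exposure replicate 3 holds the highest value of 10 genes, day 10 replicate 2 that of 7, and LOC409204 is high in 3 libraries of days 10 and 20.

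The library that held a gene's highest value was counted for members and for all genes. Day 30 replicate 1 held the highest value of 39% of all tested genes and of 12 of the 34 tested genes of the signalling list (35.3%), but of 2 of the 36 tested members (5.56%), LOC552247 and LOC100576838. Day 10 replicate 2 held it for 7 members (19.4%) and 6.70% of all genes, namely Def1, LOC113218518, LOC725114, LOC725380, LOC726320, LOC725154 and LOC726265. These shares describe the libraries and were not tested.

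Between the exposed days, 3 members were called from day 10 to day 30, against 10.8% of all genes (9.41% higher and 1.37% lower): LOC409204 and LOC100576326 fell and LOC410229 rose, as given above. Leaving out single libraries ended these calls in 8 or 9 of 11 cases. The call of LOC409204 was kept without day 20 replicate 1 or day 30 replicate 2, that of LOC100576326 without before-exposure replicates 1 or 3 or day 30 replicate 2, and that of LOC410229 without before-exposure replicate 1, day 10 replicate 3 or day 30 replicate 2. None was called from day 10 to day 20, where the share over all genes was 0.102% (0.0255% higher and 0.0766% lower), or from day 20 to day 30, where it was 0%. At an unadjusted p of 0.05 limma gave 12 members from day 10 to day 30, 5 from day 10 to day 20 and 1 from day 20 to day 30, against 29.6%, 20.8% and 6.42% of all genes. Def1 differed from day 10 to day 30 by -2.15 ± 0.66 with an adjusted p of 0.0783 and LOC113218518 by -2.34 ± 0.74 with an adjusted p of 0.0814. Without day 30 replicate 2, the high library of both, 8 members were called in that comparison, 1 higher and 7 lower, against 1240 of 7830 genes (15.8%), 1051 of them higher.

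The 30 members under the filter had a highest single value of 1.54 FPKM. Def2, the second defensin gene, was listed at 0 in 8 of 11 libraries and reached 0.26 FPKM, so the defensin signal of these brains was that of Def1. LOC724236, a chymotrypsin-like protease, was listed at 0 in all of them, and 20 of the 30 had a 0 in at least 1 library. SP34 (serine protease 34) was listed at 0 before exposure and stood at 0.20 and 0.62 FPKM at day 10.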

How the data were processed

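The deposited table gives FPKM per gene and library, as the authors made it, with 2 decimals, per the file headers. Per the submitters' processing notes fastp 0.18.0, HISAT2 2.1.0 and StringTie were used; what each did, the genome build, the annotation and the use of strand were not stated, so overlapping genes may share reads. Of 12 FPKM columns 1 was not used. All 66 members matched RefSeq's gene table of Amel_HAv3.1, used only for names and gene order; symbols are those of the table. No 2 libraries shared more than 1.39% identical nonzero values.

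limma 3.58.1 in R 4.3.3 was fitted to log2(FPKM + 1) of the 7830 genes averaging 1 FPKM or more, with 4 group means over all 11 libraries, 7 residual degrees of freedom and a mean-variance trend. This log scale understates changes of low genes. Each of 6 comparisons was adjusted by Benjamini and Hochberg over all tested genes, and the procedure was tested on simulated data. Precision comes from the spread between libraries, given as SD or as limma's moderated SE. Fold changes are ratios of mean FPKM. Alternatives were other filters, a pseudocount of 0.1, 2 scalings, a replicate block, leaving out each library, and the Mrjp1 to Mrjp7 level as a covariate.

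Every member of the effector, recognition, Toll, NF-kappa-B and phenoloxidase roles is named. Of the protease and inhibitor roles those called and the 5 with the highest mean are named, and others by counts, neighbours or highest library. The signalling list was matched by whole words. Members, lists and tests were chosen with earlier results of these data known.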

Additional observations from a re-analysis of the deposited data

How the results depend on the processing

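The 9 members called at day 10 became 5 with quantile normalization and 0 with the Mrjp level as a covariate. The 3 called from day 10 to day 30 became 1 without a filter on low values (5.12% of all genes) and 1 with quantile normalization (1.92%). They became 0 with median-of-ratios scaling (0.703%), with the Mrjp covariate (0.0894%) and with the replicate number as a block. The cause was not tested. Leaving out 1 library gave between 0 and 10 calls at day 10, 0 and 2 at day 20, 0 and 1 from day 10 to day 20, and 0 and 8 from day 10 to day 30, and 0 at day 30 and from day 20 to day 30. The count of 0 at day 10 came without day 10 replicate 2, and the 2 at day 20 (Def1 and LOC113218518) came without day 30 replicate 2. The 10 at day 10 came without day 20 replicate 2, against 17% of all genes, and the 2 at day 20 stood against 0.179%. The 1 from day 10 to day 20 came without day 20 replicate 1, against 0.0511%. It also came without day 10 replicate 3, which leaves 1 library at that time. The 8 from day 10 to day 30 came without day 30 replicate 2, against 15.8%. Over all genes, the 1500 calls at day 10 were 779 with median-of-ratios scaling (312 higher), 862 with quantile normalization (313 higher) and 0 with the covariate. In the same settings the 844 from day 10 to day 30 were 55, 150 and 7. The labels do not say whether same-numbered libraries belong together. Their deviations from the group means gave r between -0.24 and 0.31, with 3 of 15 pairs over 0.1. The pairs of day 10 with day 30 were among these, at 0.313 and 0.307. The 2 libraries of day 10 deviate by opposite amounts, so these 2 values are not independent. With the block 6 members were called at day 10, against 15.6% of all genes. From day 10 to day 30 it gave 0 members, against 5.29%. A minimum of 5 FPKM left 28 members tested and 7 called at day 10, against 26% of 5859 genes. Depth is unknown, so no limit from counting can be given for genes listed at 0.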

Other observations

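The patterns of LOC409204 and LOC725114 over single libraries were looked up in the whole table after their values had been seen. Among 5200 tested genes with at least 5 FPKM in day 10 replicates 2 and 3 and day 20 replicate 1, LOC409204 had the highest ratio of the lowest of these 3 values to the highest of the other 8 libraries, at 7.12. The next was LOC725978, described as translation initiation factor IF-2, at 3.72, with 31.8, 37.5 and 36.04 FPKM in the 3 libraries and at most 8.55 FPKM elsewhere, and the third was at 1.25.

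Among 5190 tested genes with at least 5 FPKM in day 10 replicate 2, day 20 replicate 3 and day 30 replicate 2, LOC725114 led with a ratio of 4.68. LOC406114 (alpha-amylase, a starch-cleaving enzyme) followed at 2.02, with 3060, 2714 and 3147 FPKM in these libraries and at most 1346 FPKM elsewhere. Def1, at 1.17, and LOC113218518, at 1.16, were the fifth and the eighth of this ranking, so the 3 libraries were also the 3 highest for these genes.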
